A study of Mus musculus with 9 samples.

Results

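The proteasome is the protease complex that degrades proteins tagged with ubiquitin, and its constitutive subunits were followed here through 9 mouse heart transcriptomes. The members are the genes whose symbol is Psma, Psmb, Psmc or Psmd followed only by digits, without Psmb8, Psmb9 and Psmb10, which encode the inducible catalytic subunits. They number 36 of the 54532 genes in the count table. RNA-seq had been performed on heart tissue of male wild-type C57BL/6J mice aged 8 to 10 weeks, with 3 libraries in each of 3 groups. In the sham group the chest was opened and a thread was placed without being tied. In the MIRI group (myocardial ischemia/reperfusion injury) the left anterior descending artery was tied for 30 min, followed by 24 h of reperfusion, with saline as treatment. The GXNI group had the same operation and received Guanxinning injection, a herbal preparation given to heart patients, at 9 mL/kg through the tail vein within 10 min of ischemia. The paper reports a tail vein injection of drug or saline in every group, without naming the one given to sham. MIRI and GXNI together are called I/R here, since every mouse of both groups went through ischemia and reperfusion.

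The complex consists of a barrel-shaped core and a regulatory particle that caps it. Psma genes encode the outer alpha rings, which gate the barrel. Psmb genes encode the inner beta rings, in which Psmb5, Psmb6 and Psmb7 carry the proteolytic sites. Psmc genes encode the ATPases at the base of the cap, which unfold substrates and thread them into the core, and Psmd genes encode its non-ATPase base subunits, its lid and several assembly chaperones that leave the finished particle. The subunits are assembled in fixed proportions, and cells that lose proteasome activity raise them together through the transcription factor Nfe2l1. Heart muscle relies on the complex to remove damaged and oxidized proteins and to turn over sarcomeres.

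Library totals were between 17119454 and 22811295 counts. The labels name cardiomyocytes, and their markers were abundant in every library, with a summed level of 8 genes between 27779 and 45342 CPM (counts scaled to a common library size, with TMM factors). Endothelial and fibroblast markers were also detected in every library, at 476 to 916 and 441 to 1055 CPM, and macrophage markers at 164 to 321 CPM, so the RNA was not of cardiomyocytes alone. In bulk tissue, fewer cells of a type and less RNA per cell cannot be told apart. A doubt surrounds the labels of a pair of libraries. Fold changes computed with DESeq2 from the deposited labels did not match those in the study's supplementary tables, and they matched once the libraries labelled MIRI 2 and GXNI 3 were exchanged. The deposited labels are used first below, and edgeR calls that change with both libraries exchanged or left out are given beside them. Changes of direction are given only for some of the values. The I/R against sham comparison is the same under either division.

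Of the 36 genes, 29 had a promoter in the RefSeq table (assembly GRCm38.p6), a window of 300 bases of which 50 follow the start site. The 250 bases before the start are shown for Psmb5 and Psmb6, a pair of catalytic subunits whose window holds the core of the antioxidant response element, and for Psmd11, the subunit whose level differed most between sham and I/R. Capitals mark the letters of TGACNNNGC (antioxidant response element core, bound by Nfe2l1 and Nfe2l2) and, in Psmb5, GAANNTTC (heat shock element core), searched on both strands. The Psmb5 window is chr14:54617996-54618245 on the reverse strand, that of Psmb6 chr11:70525107-70525356 on the forward strand and that of Psmd11 chr11:80428365-80428614 on the forward strand.
Psmb5: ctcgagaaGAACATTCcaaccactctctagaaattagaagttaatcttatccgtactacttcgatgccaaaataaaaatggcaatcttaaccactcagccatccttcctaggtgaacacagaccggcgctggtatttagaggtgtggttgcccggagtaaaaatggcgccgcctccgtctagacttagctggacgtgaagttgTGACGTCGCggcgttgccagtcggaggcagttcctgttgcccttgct
Psmb6: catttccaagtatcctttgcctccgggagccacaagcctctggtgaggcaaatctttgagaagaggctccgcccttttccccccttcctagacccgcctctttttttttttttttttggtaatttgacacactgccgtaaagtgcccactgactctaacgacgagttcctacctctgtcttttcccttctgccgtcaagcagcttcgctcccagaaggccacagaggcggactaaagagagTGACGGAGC
Psmd11: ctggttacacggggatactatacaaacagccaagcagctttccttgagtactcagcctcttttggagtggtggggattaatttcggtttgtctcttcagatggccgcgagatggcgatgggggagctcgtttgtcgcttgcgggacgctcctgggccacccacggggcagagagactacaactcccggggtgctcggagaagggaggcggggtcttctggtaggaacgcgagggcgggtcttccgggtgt
The antioxidant response element core was present in 5 of the 31 promoters of these 29 genes (16.1%), against 12.4% of all 32851 promoters. It began 47 bases before the start in Psmb5, 9 in Psmb6, 31 in Psmd9, 227 in Psmc6 and 247 in Psmd12. The letters CCAAT were present in 12 of the 31 (38.7%) and in 37.4% of all promoters. TATAAA was present in 3 of the 31 (9.68%) against 13.6%, and the heat shock core in 1 (3.23%) against 7.86%. In the Psmd11 window none of the 4 motifs was found. These are letter matches and not measured binding. No promoter is shown or was searched for Psma8, Psmb1, Psmb2, Psmb7, Psmc3, Psmd3 and Psmd7.

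Of the 36 genes, 34 passed the filter on low counts. Psma8, the testis form of an alpha subunit, had 4 to 16 counts per library, and Psmb11, the thymus catalytic subunit, had 0 counts in each of the 9 libraries, which allows at most 0.175 CPM in the shallowest (counting error only). The 34 genes summed to 2994 ± 28.5 CPM in sham (SD, n = 3). Per kilobase of merged exons, Psmb5 was the highest at 96.1 ± 6.55 CPM per kb, followed by Psma6 at 88.8 ± 4.91 and Psmc1 at 73.8 ± 5.89. Psmb5 and Psma6 lie within their combined spread of each other. The assembly chaperones were the lowest, with Psmd5 at 2.20 ± 0.0551, Psmd9 at 2.35 ± 0.164 and Psmd10 at 7.61 ± 0.303 CPM per kb. Among the tested subunits that stay in the particle, Psmd11 was the lowest at 11.7 ± 0.692 and Psmd14 the next at 13.9 ± 0.287. Merged exons overstate the length of a transcript with alternative ends, so these levels rank the genes only roughly.

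The libraries of the sham group held the 34 genes closely together. The coefficient of variation over the sham libraries had a median of 3.93%, from 0.437% in Psmd12 to 9.02% in Psmb3, against 10.7% over all 15207 genes tested. Over the 6 I/R libraries the median was 8.66%, against 24.3% for all genes, and the widest was Psmd11 with 33.7%. These shares are not matched on expression level.

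To find which subunits differed after ischemia and reperfusion, the 6 I/R libraries were compared with the 3 sham libraries by edgeR's quasi-likelihood test. A call needed a 1.5-fold change or more together with an unadjusted p no larger than 0.01. No subunit was called in either direction, with 0 of 34 higher against 5.52% of all genes tested and 0 of 34 lower against 2.85%. DESeq2 called 1, Psmd11. For DESeq2 calls, here and below, the share of all genes called is not given. With edgeR, 6 of 34 subunits (17.6%) had an unadjusted p under 0.05, against 29.5% of all genes. The 6 are Psmd11, Psmc4, Psma3, Psma5 and Psmd3 on the higher side and Psmd10 on the lower side. After Benjamini-Hochberg adjustment over all genes the smallest value among the 34 was 0.104, for Psmd10, so none passed 0.05, which 0.0263% of all genes did on the higher side and 0.0329% on the lower side. The median log2 fold change of the 34 was 0.06, against 0.01 for all genes tested, and 21 of 34 were positive. For 26 of the 34 subunits the 95% interval lay inside a 1.5-fold change in both directions, which was so for 28.3% of all genes.

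**Figure D1:**
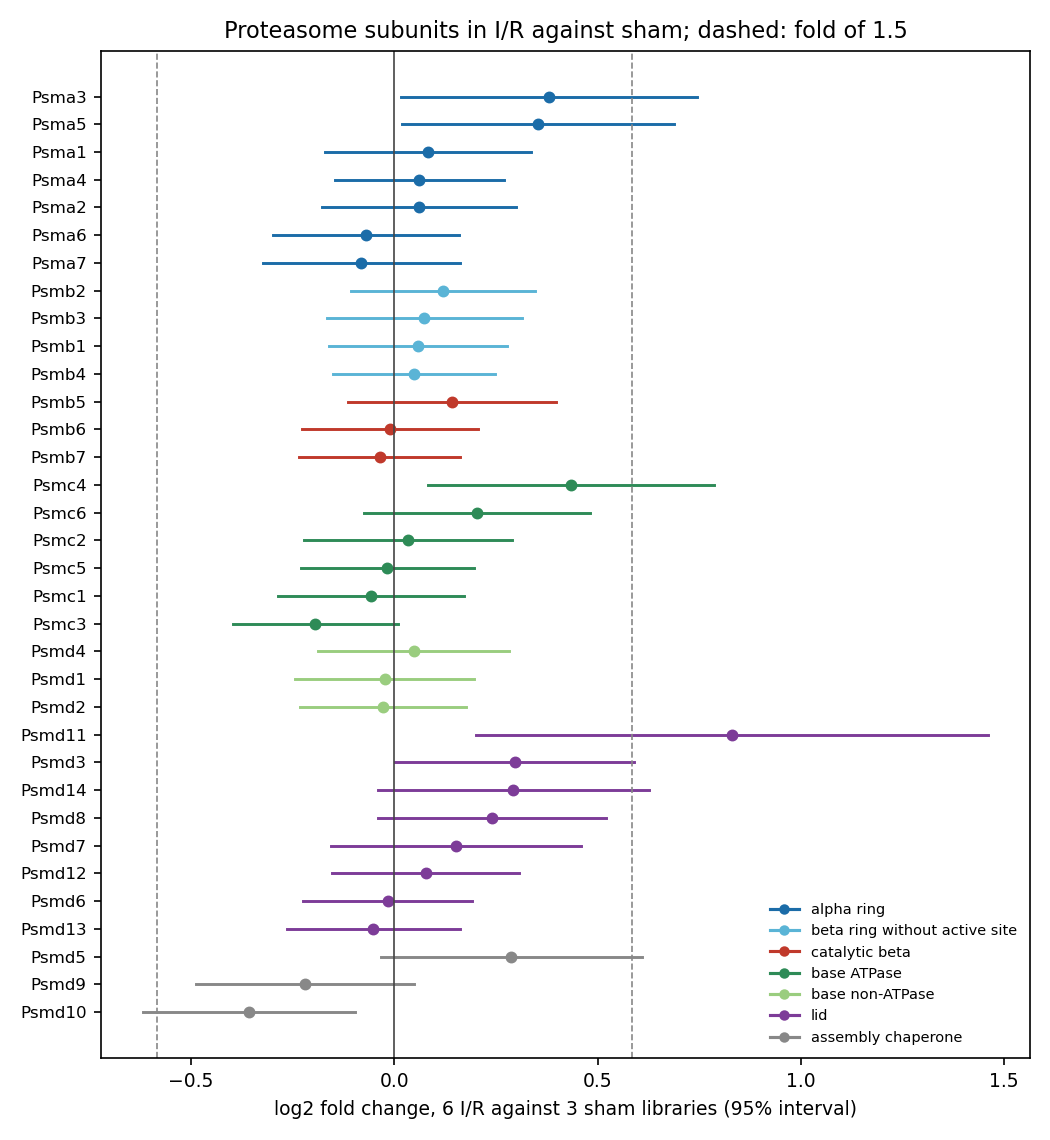
Log2 fold change of the 34 subunits in 6 I/R against 3 sham libraries (points) with 95% intervals (lines), grouped by role; dashed lines mark a 1.5-fold change. Psmd11, at 0.83, stands outside the dashed lines, and 26 intervals lie wholly between them.

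The lid removes ubiquitin from a substrate. Psmd11 encodes the lid subunit that bridges the regulatory particle and the core, and it lies on the forward strand of chromosome 11 (80428615 to 80473248), overlapping no other gene. Its counts were 1467, 1415 and 1421 in sham 1 to 3, 2887, 1606 and 4115 in MIRI 1 to 3, and 1446, 2652 and 3245 in GXNI 1 to 3. In CPM these are 78.8, 70.1 and 75.7 in sham, 135, 95.4 and 176 in MIRI, and 72.2, 131 and 188 in GXNI. Thus 5 of the 6 I/R libraries lay above every sham library, while GXNI 1 lay inside the sham range. The mean was 74.8 ± 4.42 CPM in sham (SD, n = 3) and 133 ± 44.9 in I/R (n = 6), a log2 fold change of 0.83 ± 0.28 (SE; edgeR unadjusted p = 0.0149, adjusted p = 0.108). Whether it was called turned on single libraries: it was called without GXNI 1, at 0.96 (edgeR unadjusted p = 0.00157), and without MIRI 2, at 0.91 (edgeR unadjusted p = 0.00909).

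Within each library Psmd11 was set beside the other lid genes, which removes differences in scaling. Per kilobase it was the lowest of the 8 lid genes in all 3 sham libraries, at 0.448 to 0.519 of the median of the other 7. In MIRI 1 to 3 the ratio was 0.735, 0.544 and 0.851, and in GXNI 1 to 3 it was 0.505, 0.732 and 1.11. Psmd11 ranked 3 of the 8 in GXNI 3 and 8 of the 8 in GXNI 1.

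The other lid genes had smaller differences. Psmd14, the deubiquitinase that cuts ubiquitin chains off the substrate, was at 38.7, 38.9 and 40.2 CPM in sham, 52, 41.7 and 59.6 in MIRI, and 36.6, 49.2 and 49.3 in GXNI. As with Psmd11, 5 of 6 I/R libraries lay above the sham range, although GXNI 1 lay below it. Its log2 fold change was 0.29 ± 0.15 (edgeR adjusted p = 0.212). Psmd3 (0.30) and Psmd8 (0.24), named after their values were seen, lay just above and below Psmd14, and each had 5 of 6 I/R libraries above the sham range. So did Psmd12 in the lid, and Psma5, Psmb2 and Psmc6 outside it. The share of all genes with 5 of 6 libraries above sham was not computed. In single I/R libraries, 31.4% (GXNI 1) to 41.3% (GXNI 3) of all genes tested lay above the sham range. Psmd13 was the lowest of the lid, at -0.05 with a 95% interval of -0.26 to 0.16. Its exons overlap those of Sirt3 on the opposite strand over 342 bases, and Sirt3 held at most 604 counts.

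In the base, Psmc4 was the gene with the highest value, an ATPase of the ring that unfolds substrates. It was at 52.6, 54.4 and 54.3 CPM in sham, 73.1, 63.9 and 97.2 in MIRI, and 58.8, 77.5 and 65.4 in GXNI. All 6 I/R libraries lay above all 3 sham libraries, and it was the single subunit for which this was so, against 8.40% of all genes. The log2 fold change was 0.44 ± 0.16 (edgeR unadjusted p = 0.0203, adjusted p = 0.117), a fold of 1.35 that does not reach the limit of a call. Psmc3, another ATPase of the same ring, went the other way, at 177, 186 and 172 CPM in sham, 144, 158 and 158 in MIRI, and 158, 168 and 150 in GXNI. It and Psmd10 were the 2 subunits with all I/R libraries below all sham libraries (8.46% of all genes), but its log2 fold change was only -0.19 ± 0.09. Its exons overlap those of Slc39a13 on the opposite strand over 215 bases, and the strand setting of the counting is not given in the sources used here. Of the base subunits without ATPase activity, the ubiquitin receptor Psmd4 had the highest value at 0.05 and Psmd2 the lowest at -0.03, both with intervals inside 1.5-fold.

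**Figure D2:**
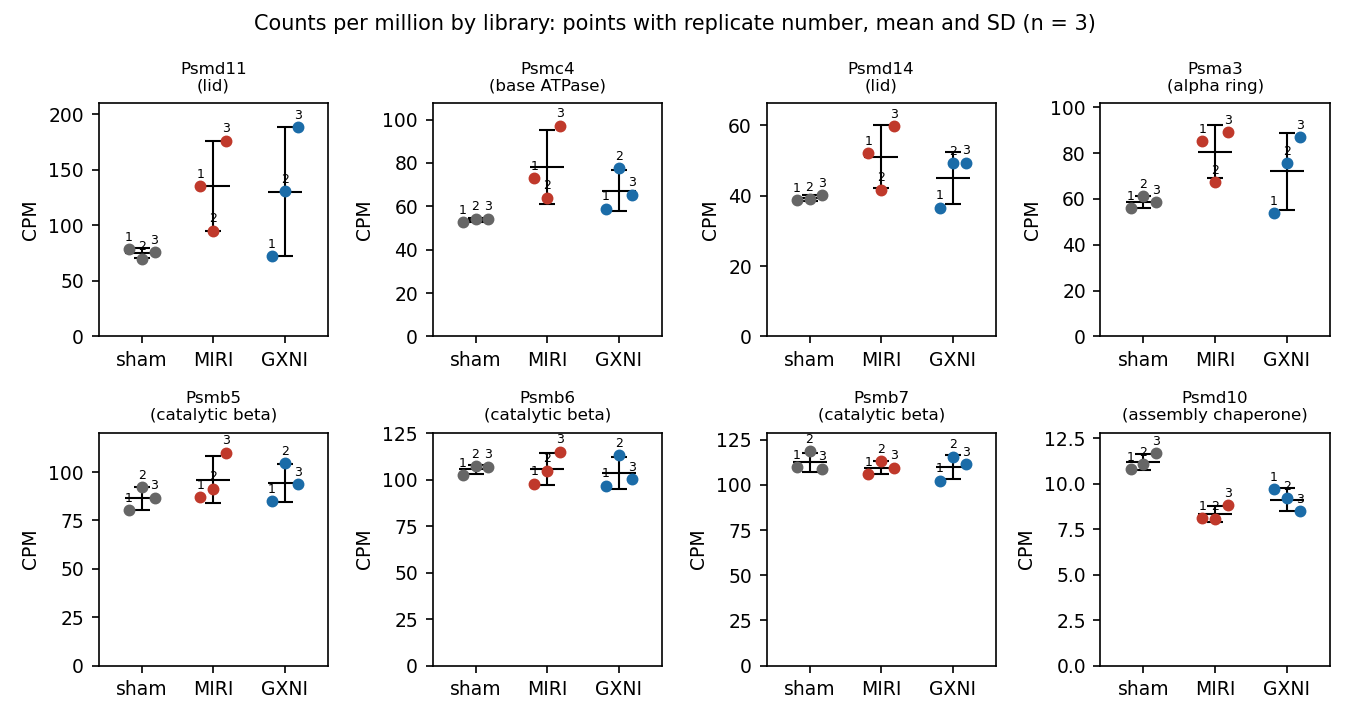
CPM of 8 subunits in each library (points, with the replicate number), with the group mean and SD (n = 3). Psmd11 spreads from 72.2 to 188 CPM in I/R against 70.1 to 78.8 in sham, whereas Psmb6 and Psmb7 overlap in all groups and Psmd10 is below sham in every I/R library.

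In the core, no beta subunit differed by more than 0.14. The catalytic subunit Psmb5, with chymotrypsin-like activity, was at 80.3, 92.1 and 86.8 CPM in sham, 87.0, 91.4 and 110 in MIRI, and 84.8, 105 and 93.9 in GXNI, and the groups overlapped. Its log2 fold change was 0.14, with an interval of -0.11 to 0.40. Psmb6, with caspase-like activity, had 103 to 107 CPM in sham and 96.9 to 115 in I/R, a difference of -0.01 (interval -0.23 to 0.21). Psmb7, with trypsin-like activity, had 109 to 118 CPM in sham and 102 to 116 in I/R, a difference of -0.04 (interval -0.23 to 0.16). All 3 intervals lay inside a 1.5-fold change. The exons of Psmb7 overlap those of Nek6 on the opposite strand over 405 bases, and Psmb5 has a processed pseudogene, Gm3375, of 98.9% identity that held at most 59 counts where Psmb5 held at least 1496. The 4 beta subunits without an active site ranged from 0.05 in Psmb4 to 0.12 in Psmb2, again with all intervals inside 1.5-fold.

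In the alpha ring, Psma3 had the highest value. It was at 55.9, 61.2 and 58.7 CPM in sham, 85.1, 67.3 and 89.3 in MIRI, and 53.7, 75.5 and 86.9 in GXNI, so that again 5 I/R libraries lay above sham and GXNI 1 lay below it. The log2 fold change was 0.38 ± 0.16 (edgeR adjusted p = 0.157). Psma7 had the lowest, at -0.08 with an interval of -0.32 to 0.16. Psma5 (0.35), named after its values were seen, was the other alpha subunit with an unadjusted p under 0.05, and the remaining 4 tested lay between -0.07 and 0.08. Psma5 has the processed pseudogenes Gm8394 (98.6% identity) and Gm12989 (97.5%). They held at most 68 and 82 counts where Psma5 held at least 695.

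The chaperones that help to assemble the base did not move together. Psmd10, also called gankyrin, was at 10.8, 11.1 and 11.7 CPM in sham, 8.10, 8.07 and 8.83 in MIRI, and 9.69, 9.21 and 8.48 in GXNI, and the groups did not overlap. Its log2 fold change was -0.36 ± 0.12 (edgeR unadjusted p = 0.0124, adjusted p = 0.104), a fold of 0.781. Psmd5 was on the higher side at 0.29 ± 0.14, with 5 of 6 I/R libraries above the sham range. Psmd9 was at -0.22 ± 0.12, with 4 of 6 I/R libraries below that range.

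The I/R libraries of either group were spread apart. Averaged over the 34 genes, the log2 difference from the sham mean was 0.08, 0.03 and 0.26 in MIRI 1 to 3 and -0.11, 0.16 and 0.07 in GXNI 1 to 3. The widest gap was thus between MIRI 3, where 27 of 34 subunits lay above the sham range and 2 below, and GXNI 1, where 2 lay above and 24 below. For all genes tested the shares above and below the sham range were 41.2% and 42.0% in MIRI 3 and 31.4% and 30.5% in GXNI 1. Psmd11 had the largest positive difference of all 34 genes in 5 of the 6 I/R libraries. The exception was GXNI 1, where it ranked ninth and lay below the sham mean. Summed over the 34 genes, the level was 3148, 3045 and 3550 CPM in MIRI 1 to 3 and 2773, 3335 and 3156 in GXNI 1 to 3, against 2962 to 3013 in sham.

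**Figure D3:**
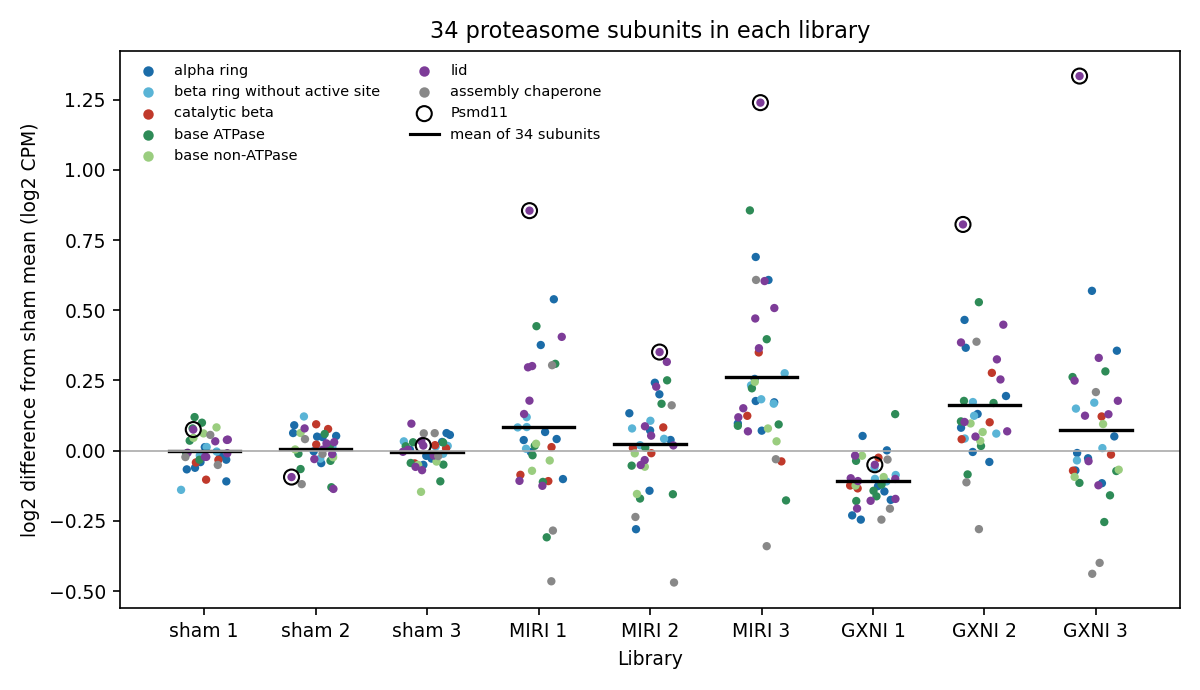
Log2 difference of each of the 34 subunits (points, coloured by role) from its sham mean, by library, with the mean of the subunits as a bar and Psmd11 ringed. The mean is lowest in GXNI 1 (-0.11) and highest in MIRI 3 (0.26), and Psmd11 tops 5 of the 6 I/R libraries.

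In MIRI against sham, the study's comparison for the injury, 1 of 34 subunits was called higher, against 6.15% of all genes, and 0 lower, against 2.82%. The subunit called was Psmd11, which rose by 0.86 ± 0.23 on the log2 scale (edgeR unadjusted p = 0.00682, adjusted p = 0.0933), a fold of 1.82. The call was lost when any library but MIRI 2 was left out, with log2 fold changes from 0.62 without MIRI 3 to 0.89 without sham 1. In 13 of 34 subunits every MIRI library lay above every sham library, against 17.4% of all genes, and in 2 every MIRI library lay below, against 16.2%. The 13 included Psmc4 (0.54), Psma3 (0.46), Psmd14 (0.39) and Psmd5 (0.38), but none of the 3 catalytic subunits. At an unadjusted p under 0.05 there were 10 of 34 subunits, against 28.3% of all genes. None passed an adjusted p of 0.05, which 0.0137% of all genes did on the higher side and 0% on the lower side, and the median of the 34 was 0.10, against 0.00 for all genes.

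With the libraries MIRI 2 and GXNI 3 exchanged, Psmd11 was 1.15 higher on the log2 scale (edgeR adjusted p = 0.000248) and again the 1 subunit called higher, while the calls over all genes widened to 19.2% higher and 16.6% lower. At an adjusted p of 0.05, 9 of the 34 subunits were higher and 2 lower, against 27.3% and 26.0% of all genes. The 9 were Psmd11, Psmd3, Psmd8, Psmd14, Psmc4, Psmc6, Psma3, Psma5 and Psmd5, and the 2 were Psmc3 and Psmd10. With both libraries left out, 2 subunits were called higher, Psmd11 (1.06) and Psmc4 (0.67), against 16.9% of all genes. At an adjusted p of 0.05, 9 of the 35 subunits tested there were higher and 0 lower, against 22.8% and 20.3% of all genes. Positive values numbered 22 of 34 with the deposited labels, 21 of 34 with the exchange and 29 of 35 without both. Neither division called a catalytic subunit.

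In GXNI against MIRI, the study's comparison for the treatment, 0 of 34 subunits were called higher, as was 0% of all genes, and 0 were called lower, against 0.0203% of all genes. DESeq2 also called 0, and 0 subunits had an unadjusted p under 0.05, as against 47 of the 14762 genes tested. In no subunit were the groups apart, where 1.21% of all genes were higher and 1.49% lower without overlap. Values were small and mostly on the lower side, with 28 of 34 negative, a median of -0.07 against 0.00 for all genes, and a range from -0.21 in Psmc4 to 0.14 in Psmd10. For 27 of the 34 the 95% interval lay inside a 1.5-fold change. That was not the case for Psmd11, with a difference of -0.05 and an interval of -0.96 to 0.87, which includes changes of more than 1.5-fold in either direction. The catalytic subunits differed by -0.02 in Psmb5, -0.02 in Psmb6 and 0.01 in Psmb7, all with intervals inside 1.5-fold.

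With the exchange, Psmd11 was -0.73 ± 0.23 in GXNI against MIRI (edgeR unadjusted p = 0.0118, adjusted p = 0.0488), the 1 subunit of 34 with an adjusted p under 0.05 against 13.0% of all genes lower and 11.5% higher. It was not called at the unadjusted threshold of 0.01 by edgeR, and DESeq2 with the exchange called it lower at -0.75 (unadjusted p = 0.00248). With both libraries left out it was -0.61 (edgeR unadjusted p = 0.102). The value of Psmd11 between treated and untreated hearts thus changed with the labels of that pair of libraries. The median of the 34 was -0.07 with the deposited labels and with the exchange, and -0.10 without both libraries, but it moved from -0.12 without GXNI 2 to -0.01 without MIRI 3 or GXNI 1. Negative values numbered 23 of 34 with the exchange and 29 of 35 without both libraries. Psma3 was -0.40 (adjusted p = 0.0752) with the exchange, against -0.15 with the deposited labels.

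**Figure D4:**
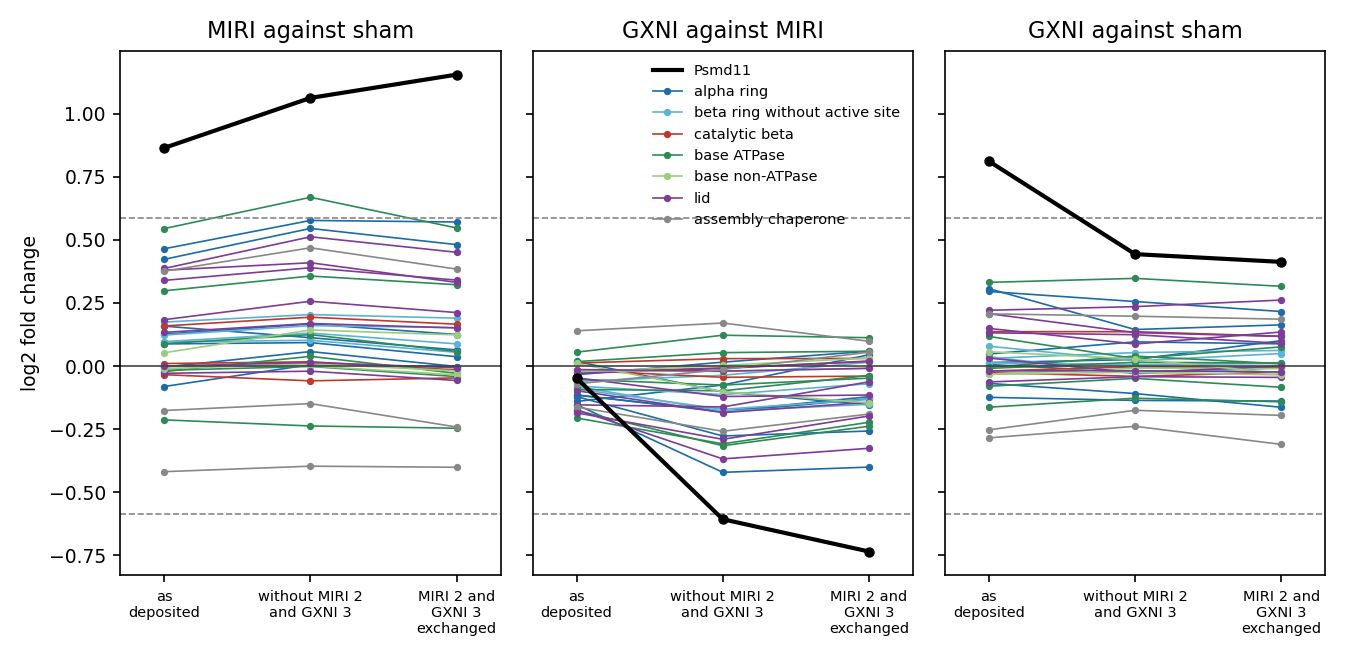
Log2 fold change of the 34 subunits (lines, coloured by role, Psmd11 in black) in 3 comparisons with the labels as deposited, without the libraries MIRI 2 and GXNI 3, and with these exchanged; dashed lines mark a 1.5-fold change. In GXNI against MIRI, Psmd11 goes from -0.05 to -0.61 and -0.73, while the other subunits stay between the dashed lines.

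GXNI against sham shares its sham libraries with the MIRI comparison, so the values are given side by side and are not independent. It had 0 of 34 subunits called higher, against 2.67% of all genes, and 0 lower, against 1.54%. With edgeR, 2 of 34 subunits (5.88%), Psmd11 and Psmc4, had an unadjusted p under 0.05, against 19.8% of all genes. DESeq2 called 0 as well. Psmd11 was 0.81 ± 0.32 above sham in GXNI, where it was 0.86 in MIRI, and Psmc4 was 0.33 above, where it was 0.54 in MIRI. Psmd11 would be called without GXNI 1, at 1.10 (edgeR unadjusted p = 0.000709), and with the exchange it was 0.41 (edgeR unadjusted p = 0.0792). Psmc4 lay above sham in every GXNI library, and Psmc3 and Psmd10 lay below it, against 13.8% and 15.6% of all genes without overlap.

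Other genes of the pathway were taken from a list of 36 (regulators, assembly factors, activators, ubiquitin genes, bound enzymes, muscle ubiquitin ligases and inducible catalytic subunits), all of which were tested. In I/R against sham 1 of 36 was called higher and 0 lower, where 5.52% and 2.85% of all genes were, and DESeq2 also called Psmb9 lower at -1.35 (unadjusted p = 0.00453). The gene called was Nfe2l2, the oxidative stress factor that binds antioxidant response elements. It was at 59.9, 53.1 and 53.9 CPM in sham, 93.6, 79.3 and 104 in MIRI, and 87.2, 90.9 and 113 in GXNI, with no overlap. It rose by 0.77 ± 0.13 on the log2 scale (edgeR unadjusted p = 0.000158, adjusted p = 0.0546). The 5 subunits whose promoter window holds the core of that element differed by 0.14 in Psmb5, -0.01 in Psmb6, 0.20 in Psmc6, 0.08 in Psmd12 and -0.22 in Psmd9, and none was called. Nfe2l1, the factor that raises subunits when the proteasome is inhibited, had 524 to 545 CPM in sham and 443 to 573 in I/R, a difference of -0.09 with an interval of -0.33 to 0.15. Pomp, which matures the core, differed by -0.10 (interval -0.31 to 0.11).

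The activators that can replace the cap were mixed. Psme1 and Psme2, the interferon-inducible pair, were at -0.43 ± 0.12 (edgeR unadjusted p = 0.00515, short of the fold limit) and -0.56 ± 0.21 (edgeR unadjusted p = 0.0236). Psme1 had 108, 140 and 149 CPM in sham 1 to 3 and 89.4 to 106 in I/R, so that the groups did not overlap. The nuclear activator Psme3 was at 0.40 ± 0.15 (edgeR unadjusted p = 0.0258) and Psme4 at 0.09 ± 0.31. In MIRI against sham 2 of the 36 were called higher and 0 lower, where 6.15% and 2.82% of all genes were. They were Nfe2l2 (0.73), which lost its call without sham 2 or sham 3, and the shuttle factor Rad23b (0.60), which lost it without any 1 library but MIRI 2. DESeq2 also called Fbxo32, Psme2 and Psmb9 lower. In GXNI against sham Nfe2l2 (0.81) was called higher and Psmb10 (-0.87) lower, where 2.67% and 1.54% of all genes were. The Psmb10 call was lost without sham 2, sham 3, GXNI 1 or GXNI 2, with values from -0.88 to -0.63, and with all 9 libraries in 1 fit. In GXNI against MIRI 0 of the 36 were called.

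These counts changed with the labels of MIRI 2 and GXNI 3, and the genes named for it were chosen after their values were seen. In MIRI against sham, 4 of the 36 were called higher and 3 lower with the exchange, and the same counts were found without both libraries. Of all genes 19.2% were called higher and 16.6% lower with the exchange, and 16.9% and 13.3% without both. The muscle ubiquitin ligases Fbxo32 and Trim63 were among the lower ones, Fbxo32 at -1.97 with the exchange and -1.83 without both libraries, and Trim63 at -0.60 and -0.68, against -1.35 and -0.56 with the deposited labels. Ubqln2 was the other lower one, and Rps27a and Mdm2 were higher beside Nfe2l2 and Rad23b. In GXNI against MIRI, 1 was called higher and 1 lower under either division, where 8.56% and 10.7% of all genes were with the exchange and 1.52% and 3.47% without both libraries. Fbxo32 was higher at 1.73 with the exchange (edgeR unadjusted p = 0.00132) and 1.78 without both libraries (edgeR unadjusted p = 0.00748), against 0.86 (unadjusted p = 0.257) with the deposited labels. Rps27a, which encodes a ubiquitin fused to a ribosomal protein, was lower at -1.90 under both, against -0.54. In GXNI against sham the exchange added Psmb9, lower at -1.84 (edgeR unadjusted p = 0.00984).

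Each inducible catalytic subunit takes the place of a constitutive one in newly made cores, so the ratio of their counts was taken within each library. Psmb8 to Psmb5 was 0.277, 0.456 and 0.576 in sham 1 to 3, 0.445, 0.0799 and 0.245 in MIRI, and 0.213, 0.213 and 0.505 in GXNI. Psmb9 to Psmb6 was 0.0843, 0.267 and 0.355 in sham, 0.133, 0.0362 and 0.0831 in MIRI, and 0.0891, 0.0748 and 0.152 in GXNI. Psmb10 to Psmb7 was 0.513, 0.659 and 0.953 in sham, 0.697, 0.285 and 0.504 in MIRI, and 0.359, 0.385 and 0.437 in GXNI. In every pair the groups overlapped, save that all 3 GXNI libraries lay below sham for Psmb10 to Psmb7, and sham 1 was the lowest sham library. In I/R against sham the log2 ratios differed by -0.79, -1.22 and -0.68, with exact permutation p (two-sided, 6 against 3) of 0.19, 0.119 and 0.0833 and adjusted p of 0.19, 0.179 and 0.179 over the 3 ratios. The smallest p this design allows is 0.0119. In GXNI against MIRI they differed by 0.46, 0.45 and -0.24, with exact permutation p of 0.8, 0.5 and 0.6, where 3 against 3 cannot go below 0.1. The direction of the first pair of ratios turned with the library MIRI 2, since without it the values were -0.22 for Psmb8 to Psmb5 and -0.07 for Psmb9 to Psmb6, and Psmb10 to Psmb7 was at -0.59. With MIRI 2 and GXNI 3 exchanged, the 3 values were -1.31, -0.93 and -0.65, with exact permutation p of 0.1, 0.2 and 0.1, and the groups did not overlap for Psmb8 to Psmb5 and Psmb10 to Psmb7. With both libraries left out they were -0.63, -0.36 and -0.67, where 2 against 2 cannot go below an exact permutation p of 0.333. In I/R against sham they were -0.66, -1.11 and -0.55 without both libraries.

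**Figure D5:**
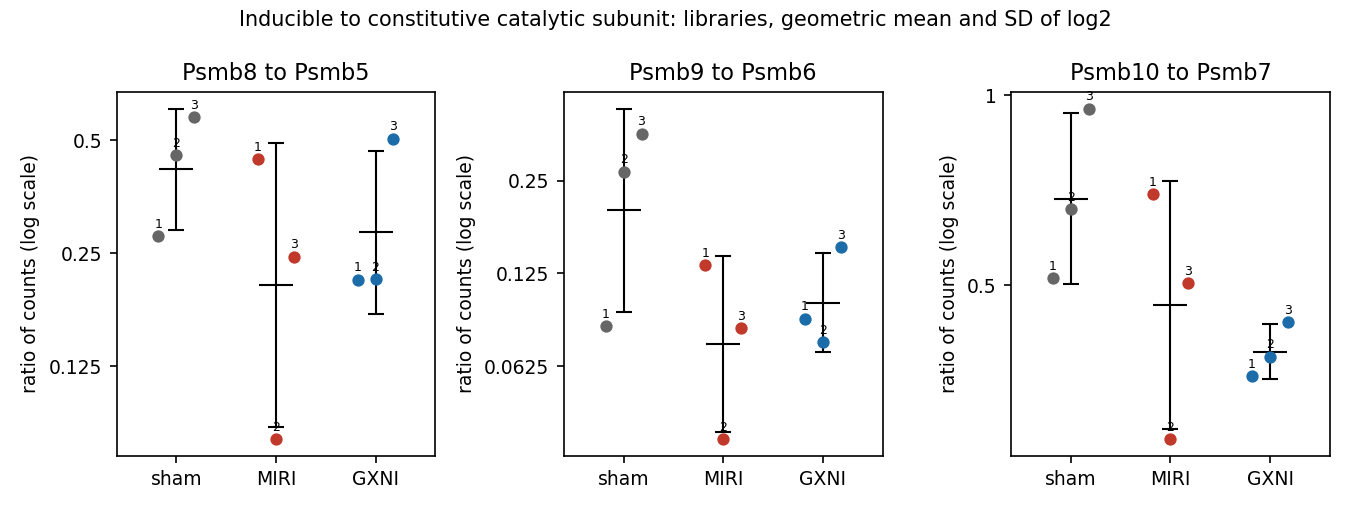
Ratio of the counts of each inducible catalytic subunit to the constitutive subunit it replaces, by library (points, with the replicate number), on a log scale, with the geometric mean and the SD of the log2 ratio (n = 3). The sham libraries span 0.277 to 0.576, 0.0843 to 0.355 and 0.513 to 0.953, and MIRI 2 is the lowest library for all 3 ratios.

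Cell type markers differed between the libraries in which Psmd11 was high and low. The summed cardiomyocyte markers were at 40116 to 43255 CPM in sham, at 27779 to 30926 in MIRI 1, MIRI 3, GXNI 2 and GXNI 3, where Psmd11 was at 131 CPM or more, and at 45342 and 36651 in MIRI 2 and GXNI 1, where it was at 95.4 and 72.2. The neutrophil marker S100a8, named after its values were seen, was at 9.21 to 12.1 CPM in sham, at 53.7 to 202 in the first 4 libraries, and at 8.55 and 13.4 in the last 2. Lcn2, on the same list, did not follow that division, with 125 to 150 CPM in sham, 391, 206 and 172 in MIRI 1 to 3, and 578, 438 and 131 in GXNI 1 to 3. Actc1, on the cardiomyocyte list and also named after its values were seen, did not follow it either. It was at 4118 to 5503 CPM in sham and at 5351, 8824 and 10361 in MIRI 1 to 3. In GXNI 1 to 3 it was at 3375, 4849 and 7500 CPM. The sum of the 8 neutrophil markers was 154 to 205 CPM in sham, 1048, 232 and 742 in MIRI 1 to 3, and 627, 641 and 725 in GXNI 1 to 3, and none of the 8 was at 0 throughout. Lcn2 alone made up 578 of the 627 CPM in GXNI 1. Retnlg, also named after its values were seen, was at 3.50 CPM in GXNI 2, inside its sham range of 1.04 to 3.92. It was at 44.2, 33.1 and 21.4 CPM in MIRI 1, MIRI 3 and GXNI 3. T cell markers summed to less than 1 CPM in every library. Their part in the result was not tested.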

How the data were processed

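The deposited values are whole-number counts of reads per gene, 1 column per library. Before counting with featureCounts (Subread), the authors discarded reads of low quality or with adapter or poly-N sequence and aligned the rest with HISAT2, and the submitters' processing notes name build mm10. Software versions, annotation and strand setting are not given in the sources used here. Symbols were matched by Ensembl identifier in a gene-name table (54409 of 54532), and coordinates and exon lengths are those of GENCODE M21 (GRCm38). Members and lists were chosen with earlier results of these data known.

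Counts were fitted with edgeR 4.0.16 (R 4.3.3; TMM, filterByExpr, quasi-likelihood F test, no covariates), for I/R against sham on 9 libraries and otherwise on the 6 of the comparison. The SE is the log2 fold change divided by the square root of F. CPM used TMM factors over 9 libraries. Ratios were compared by two-sided exact permutation tests over libraries. Alternatives were DESeq2 1.42.0, RLE scaling, no filter, mitochondrial genes left out, all 9 libraries in 1 fit, other call rules, a replicate block, each library left out, and both doubted libraries left out or exchanged. DESeq2 with the exchange, and the ratios under both divisions, were added after seeing the data. Named with values are the catalytic subunits, Psmd14, subunits called, the highest and lowest of each role and those under the filter, and, of the other genes, those called, Nfe2l1, Nfe2l2, Pomp and Psme1 to Psme4. Scripts were tested on simulated data. No 2 libraries of the same group agreed within sampling noise, and pairs from different groups were not checked. 0 columns of other samples were used.

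The authors' tables of fold changes served only to check the labels. Deviations of same-numbered libraries from their group means correlated from -0.49 to 0.77. Libraries with different numbers were not compared, so this range cannot settle whether the numbers pair libraries. The study describes the libraries of a group as independent animals, so p-values measure the spread between mice.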

Additional observations from a re-analysis of the deposited data

Results flagged for a closer look

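Psmd12, a lid subunit, was singled out because 1 of the 6 I/R libraries stood far from the others. GXNI 1 had 81.6 CPM and the nearest other library 95.8, a gap of 0.651 of the whole range of the 6 on the log2 scale, above Dixon's 95% critical value for 6 samples. It was the 1 case among 34 subunits tested, and chance gives about 1 in 20 groups.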

How the results depend on the processing

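Of 130 alternative values of the main counts, medians and ratios that did not come from leaving out a library, 124 kept their side of the threshold, and all medians stayed within the spread between libraries. In I/R against sham the count of subunits called higher was 0, and it became 1 (Psmd11) with DESeq2 and with no filter, and from 0 to 1 when each library was left out. In MIRI against sham the count was 1, and it became 0 with an adjusted p of 0.05, 0 with all 9 libraries in 1 fit, 2 without MIRI 2 and GXNI 3, and from 0 to 2 on leaving out a library. In GXNI against MIRI the count lower was 0, and it became 1 with DESeq2 and the exchange, while in GXNI against sham the count higher went from 0 to 1 on leaving out a library. On leaving out a library the median log2 fold changes ranged from 0.03 to 0.08 in I/R against sham, 0.04 to 0.13 in MIRI against sham, -0.12 to -0.01 in GXNI against MIRI and -0.03 to 0.08 in GXNI against sham. For the ratios in I/R against sham, leaving out each library gave -1.84 to -0.80 for Psmb9 to Psmb6 (p = 0.0357 without sham 1, exact permutation test) and -0.89 to -0.45 for Psmb10 to Psmb7 (p = 0.0179 without MIRI 1, exact permutation test). The cause of these changes was not tested. Among 2400 alternative values of single genes, 2322 kept their side, 57 passed the threshold newly, 20 lost it and 1 reversed: Psmb8 in GXNI against MIRI, at -1.25 with DESeq2 and the exchange. In 141 of the 2322, for genes called in neither fit, the sign differed.

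With the replicate number as a block, the counts were 0 in I/R against sham, 1 in MIRI against sham, 0 in GXNI against MIRI and 0 in GXNI against sham, with medians of 0.06, 0.09, -0.08 and 0.02, and no call over the subunits changed, while Rad23b lost its call in MIRI against sham (edgeR unadjusted p = 0.0125). Whether the numbers pair the libraries was not settled. With 3 libraries a group, 95% intervals of GXNI against MIRI reached a median of 0.38 to either side on the log2 scale. By role that median went from 0.35 in the base subunits without ATPase activity to 0.42 in the assembly chaperones. Changes of about that size could thus be missed, and the median is not a limit of detection for each subunit.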
